A study of Mus musculus with 37 samples.

Results

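Cytosolic ribosomal protein genes encode the protein components of the ribosome that translates nuclear mRNAs. The 78 genes described here were chosen by symbol (Rpl and Rps names, Rplp0, Rplp1, Rplp2 and Rpsa) and by a mean of at least 1 CPM, the counts of a gene scaled to a common library total, out of 56980 genes in the table. They comprise 44 genes of the large subunit, 3 of its P stalk and 31 of the small subunit, including Rpsa. The rule compares no groups, but the genes were chosen with earlier results of these data known. Of 89 symbols that matched, 6 were pseudogenes and were left out, and 5 fell under 1 CPM: Rpl10l at 0.018, Rpl39l at 0.051, Rpl24 at 0.190, Rpl3l at 0.304 and Rps10 at 0.389 CPM. Exons of Rpl24 and Rps10 overlap other genes on the same strand, Gm28037 and RPS10-NUDT3, so these low values can depend on annotation. Just inside the limit were Rpl13a at 3.66 CPM and Rps27l at 7.55 CPM. All 78 genes passed the filter on low counts.

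Polyadenylated RNA came from tissue labelled as brain, and in the title as medial prefrontal cortex, of male wild-type C57BL/6J mice, with all cell types included. Adult mice started treatment on postnatal day 55 and adolescent mice on postnatal day 25, and every group drank either antibiotics or water and was injected with either morphine at 15 mg/kg or saline for 5 days. The libraries with at least 1000000 counts numbered 4 in adult antibiotics morphine, 5 in adult antibiotics saline, 5 in adult water morphine, 3 in adult water saline, 5 in adolescent antibiotics morphine, 3 in adolescent antibiotics saline, 5 in adolescent water morphine and 5 in adolescent water saline mice, 35 in all. The labels do not say that the libraries of a group came from separate animals, so p-values measure the spread between these libraries.

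These 35 libraries held 10630727 to 31560468 counts, and the other 2, with 25165 and 58764 counts, were left out. Markers of excitatory neurons summed to 3934 CPM in the lowest library and to 6661 CPM in the highest. Adolescent water saline replicate 1 stood apart, with 1001 CPM of striatal neuron markers against group medians of 109 to 146 CPM, and with 18182 CPM of oligodendrocyte markers. Islet hormone transcripts, which brain tissue should hardly contain, reached 50.5 CPM in adolescent libraries and 0.358 CPM at most in adult libraries. The part of these RNAs in the results below was not tested.

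Ribosomal proteins are made in near-equal numbers, each taking a fixed place in the large or the small subunit around ribosomal RNA. Most of their mRNAs begin with a 5′ terminal oligopyrimidine (TOP) tract, a C followed by a run of pyrimidines, through which mTORC1, acting by way of Larp1, sets how strongly they are translated. In neurons their mRNAs occur in cell bodies and also in dendrites and axons.

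The RefSeq promoter table for GRCm38.p6 matched 58 of the 78 genes, with 69 annotated starts. The windows below cover 10 bases before the start and 20 bases from it, in the reading direction, with the longest run of 5 or more pyrimidines in capitals. The first 4 genes are ones that were lower in adults than in adolescents, and the last 4 are ones that were higher with antibiotics than with water. They are examples, and Rpl11 was also lower in adults.
Rps2, chr17:24720053-24720082, plus strand: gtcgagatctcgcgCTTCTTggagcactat
Rps26, chr10:128626487-128626516, minus strand: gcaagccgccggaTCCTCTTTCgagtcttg
Rpl28, chr7:4792955-4792984, plus strand: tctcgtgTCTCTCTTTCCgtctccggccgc
Rplp2, chr7:141447641-141447670, plus strand: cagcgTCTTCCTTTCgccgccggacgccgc
Rpl14, chr9:120571507-120571536, plus strand: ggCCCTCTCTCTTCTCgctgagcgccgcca
Rps27, chr3:90213629-90213658, minus strand: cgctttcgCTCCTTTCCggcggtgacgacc
Rpl11, chr4:136053374-136053403, minus strand: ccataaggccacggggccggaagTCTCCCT
Rpl35a, chr16:33056443-33056472, plus strand: gcgtgcgtcccacaaggccgcgcggcgggg
The run was 6 bases long in Rps2, 9 in Rps26, 11 in Rpl28 and 10 in Rplp2. It was 14 bases long in Rpl14, 9 in Rps27 and at least 7 in Rpl11, where it reached the end of the window, and the Rpl35a window held none. Windows of some called genes not shown held none either, such as Rpl41, lower in adults, and Rpl37, higher with antibiotics.

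Across the 80 bases from 30 before the start, the pyrimidine motif CTTTC on the reading strand occurred at 46.4% of the 69 ribosomal protein starts, against 10.3% of all 32851 annotated starts. On the opposite strand it occurred at 10.1% of the ribosomal protein starts and at 9.95% of all starts. A C exactly at the annotated start followed by 4 pyrimidines was found at 17.4% of the ribosomal protein starts and at 2.51% of all starts. The ETS-type motif CCGGAA, searched on both strands over 300 bases, was present at 49.3% and 14.9%, and the TATA motif TATAAA at 10.1% and 13.6%. The motifs were searched as these letters, and an annotated start can lie some bases away from the start used in brain.

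Together the 78 genes took about 1 in 100 counted reads, and the mean share was higher with antibiotics than with water at each age and injection. It was 1.12% ± 0.086 in adult antibiotics morphine libraries (SD, n = 4), 1.17% ± 0.071 in adult antibiotics saline libraries (n = 5), 1.05% ± 0.064 in adult water morphine libraries (n = 5) and 1.04% ± 0.038 in adult water saline libraries (n = 3). In adolescents it was 1.11% ± 0.049 with antibiotics and morphine (n = 5), 1.18% ± 0.054 with antibiotics and saline (n = 3), 1.09% ± 0.050 with water and morphine (n = 5) and 1.14% ± 0.045 with water and saline (n = 5). The groups overlap for most pairs. Every adult antibiotics saline library, however, lay above every adult water saline library, the highest of which was at 1.07%. Every adolescent water saline library, the lowest at 1.09%, also lay above those 3 adult water saline libraries. In bulk tissue, fewer cells of a type and less RNA per cell cannot be told apart.

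**Figure D1:**
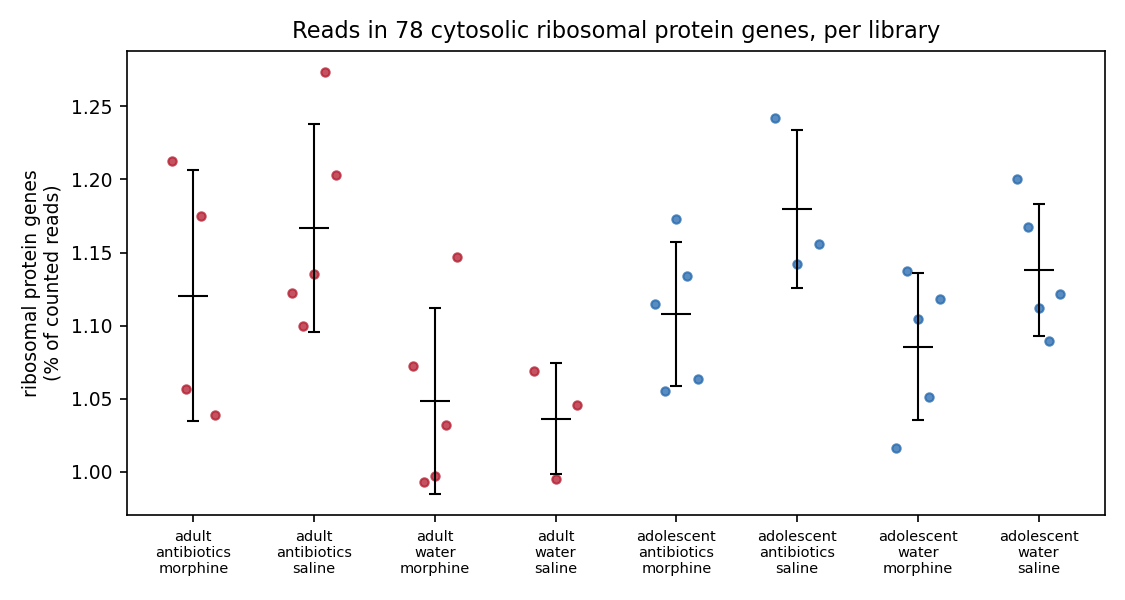
Share of counted reads (%) in the 78 ribosomal protein genes, one point per library, with the mean and SD of each group as bars; the axis does not start at 0. Adult antibiotics saline libraries, the highest at 1.27%, lie above all adult water saline libraries (0.995% to 1.07%). The adolescent water saline libraries, the lowest at 1.09%, do so too.

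Per length of the principal transcript, Rplp1, an acidic protein of the P stalk to which elongation factors bind, was the most abundant at 714 RPKM, followed by Rps21 at 440, Rps15 at 437, Rpl41 at 418 and Rps27 at 411 RPKM. The lowest were Rpl13a at 3.49, Rps27l at 15.1, Rpl7l1 at 19.2, Rps15a at 22.0 and Rps20 at 24.1 RPKM. The median over the 44 large-subunit genes was 163 RPKM and over the 31 small-subunit genes 161 RPKM. The low values of Rpl13a, Rps15a and Rps20 can depend on annotation, which was not tested. An Rpl13a exon overlaps Gm45713 on the same strand. The principal transcripts of Rps15a and Rps20 are listed at 5130 and 3706 bases, against a median of 830 for all 78 genes.

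Of the paralog pairs, Rpl22 averaged 73.3 CPM and Rpl22l1 37.5 CPM, Rps27 averaged 142 CPM and Rps27l 7.55 CPM, and Rpl7 averaged 173 CPM and Rpl7l1 37.6 CPM. Rpl39 averaged 54.3 CPM, while the testis-enriched Rpl39l, like the other testis paralog Rpl10l and the muscle paralog Rpl3l, was under the limit of 1 CPM.

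Levels varied little between libraries. The SD of log2 CPM over the 35 libraries was smallest for Rpl6 at 0.073, Rpl7a at 0.079, Rpl4 at 0.082 and both Rpl7l1 and Rps15a at 0.088. It was largest for Rpl13a at 0.31, Rps29 at 0.29, Rps28 at 0.24, Rpl38 at 0.22 and Rpl19 at 0.21.

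Libraries that were high for one ribosomal protein gene were high for most. After subtracting group means, the correlation of each gene with the mean of the other 77 over the 35 libraries had a median r of 0.82, from 0.087 for Rps21 to 0.95 for Rpl23a, while 9614 other genes of at least 10 CPM had a median r of 0.02 with the mean of the 78 genes. The libraries share depth and preparation in these values, which are a description. The other genes most like the mean were Tmsb4x (r = 0.86), which encodes thymosin beta 4, Fau (r = 0.85), which encodes ribosomal protein eS30 fused to a ubiquitin-like protein, Tlcd1 (r = 0.84), Rbx1 (r = 0.83), Tpt1 (r = 0.82), Tbca (r = 0.81), Gabarap (r = 0.81) and Smim14 (r = 0.80). Tlcd1 overlaps Rpl23a on the opposite strand, so the pair can share reads. The 50 most similar genes had a median transcript length of 1073 bases, against 3268 bases for the 9614.

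Transcript length therefore was followed in every library. The length readout is the median log2 deviation of other protein-coding genes under 1500 bases minus that of genes over 5000 bases. It was higher in libraries with a higher mean log2 CPM of the 78 genes, with Pearson's r of 0.77 and Spearman's rho of 0.74 over 35 libraries, r of 0.77 without the 2 libraries farthest from the median readout, and r of 0.79 for deviations from group means. Its mean was −0.069 in adult antibiotics morphine, 0.006 in adult antibiotics saline, −0.066 in adult water morphine and −0.059 in adult water saline libraries, and 0.019, 0.112, 0.025 and 0.054 in the adolescent groups of the same treatments. For the 78 genes, counts of called genes and medians with this readout as a covariate are given after those without it. The lists of related genes and of markers were counted only without it.

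**Figure D2:**
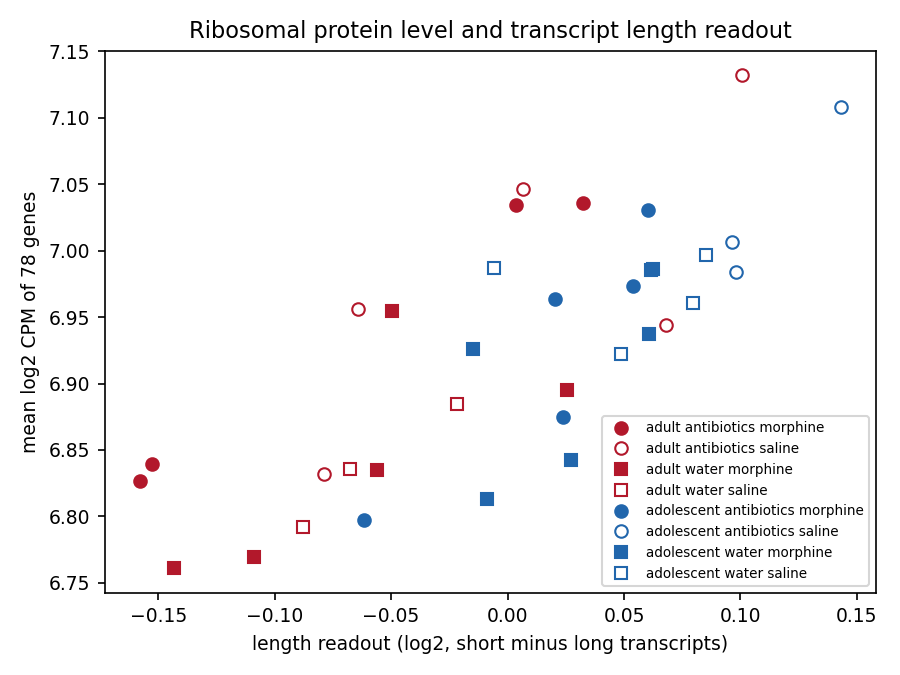
Mean log2 CPM of the 78 ribosomal protein genes against the length readout (log2, short minus long transcripts), one point per library, with age by colour, drinking regime by shape and injection by fill. The points run upward together (r = 0.77 over 35 libraries), with most adult libraries to the left.

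Antibiotics were compared with water to see whether drinking antibiotics changes gene expression in the brain. Averaged over both ages and both injections, edgeR's quasi-likelihood test with Benjamini-Hochberg adjustment called 19 of the 78 genes higher with antibiotics and 0 lower, against 5.16% of all 19332 tested genes higher and 5.05% lower. The median log2 fold change of the 78 genes was 0.08, against −0.00 for all genes, and 76 of the 78 values were positive. The log2 values ranged from −0.02 for Rpl22l1 to 0.26 for Rps29, which missed the threshold (adjusted p = 0.083).

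By place in the ribosome, the 19 included the small-subunit genes Rps14, Rps27, Rps15, Rps3, Rps23 and Rps18, of which Rps3 lies at the mRNA entry channel and Rps23 near the decoding centre. They also included the large-subunit genes Rpl3, Rpl17, Rpl14, Rpl35a, Rpl11, Rpl37, Rpl5, Rpl32, Rpl19, Rpl4, Rpl21 and Rpl8. Rpl5 and Rpl11 form the 5S ribonucleoprotein, which also binds Mdm2 when ribosome assembly is disturbed. At an unadjusted p under 0.05, 48 genes were higher and 0 lower, where 12.2% of all genes were higher and 11.5% lower, and DESeq2 likewise called 0 lower. Leaving out 1 library at a time, the calls of Rps18, Rpl8, Rpl21 and Rpl4 held in 16, 17, 17 and 25 of 35 fits, with adjusted p up to 0.135 for Rpl8 without adolescent antibiotics saline replicate 1. None of the P stalk genes passed, with log2 fold changes of 0.03 for Rplp0, 0.00 for Rplp1 and 0.01 for Rplp2. Rps2, at the mRNA entry channel of the small subunit, and Rpsa, near its mRNA exit, were at −0.00 and 0.00. Among the other core genes, Rps6, the target of S6 kinases, had a value of 0.08 (adjusted p = 0.14), Rpl10 0.06 (0.25), Rps4x 0.08 (0.088), Rps27a 0.11 (0.057), Rpl7 0.08 (0.087) and Rpl22 0.08 (0.066).

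Rps14 had the smallest adjusted p. In adults its CPM was 246, 236, 251 and 201 with antibiotics and morphine, against 217, 199, 198, 196 and 198 with water and morphine. With saline it was 241, 234, 220.1, 271 and 246 in adults on antibiotics, against 206, 189 and 209 on water. Under saline the adult groups did not overlap, and under morphine 3 of the 4 antibiotics libraries exceeded all water libraries. In adolescents Rps14 was at 231, 221, 240.3, 234 and 223 CPM with antibiotics and morphine, against 206, 231, 236, 207 and 231 with water and morphine. With saline adolescents had 237, 222 and 231 CPM on antibiotics, against 206, 232, 217, 221 and 233 on water, and both adolescent pairs overlapped. The log2 fold change was 0.15 (SE 0.030, adjusted p = 0.0012) over the 4 strata.

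Rpl3, which lies at the peptidyl transferase centre, showed the same order. Adults on antibiotics and saline had 348, 336, 339.6, 396 and 376 CPM of Rpl3, against 301, 291 and 312 CPM in adults on water and saline, with no overlap. With morphine adult Rpl3 was at 372, 324, 359 and 325 CPM on antibiotics, against 322, 308, 299, 302 and 342 CPM on water, where the groups overlapped. In adolescents Rpl3 averaged 352 ± 14.5 and 353 ± 12.9 CPM on antibiotics with morphine (n = 5) and saline (n = 3), against 332 ± 11.6 and 340.5 ± 14.2 CPM on water (SD, n = 5 each). Over the 4 strata the log2 fold change of Rpl3 was 0.13 (SE 0.027, adjusted p = 0.0012). Rpl17 rose by 0.14 (SE 0.029, adjusted p = 0.0020), Rpl14 by 0.11 (SE 0.025, adjusted p = 0.0031), Rps27 by 0.18 (SE 0.046, adjusted p = 0.0089) and Rpl35a by 0.16 (SE 0.042, adjusted p = 0.012).

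**Figure D3:**
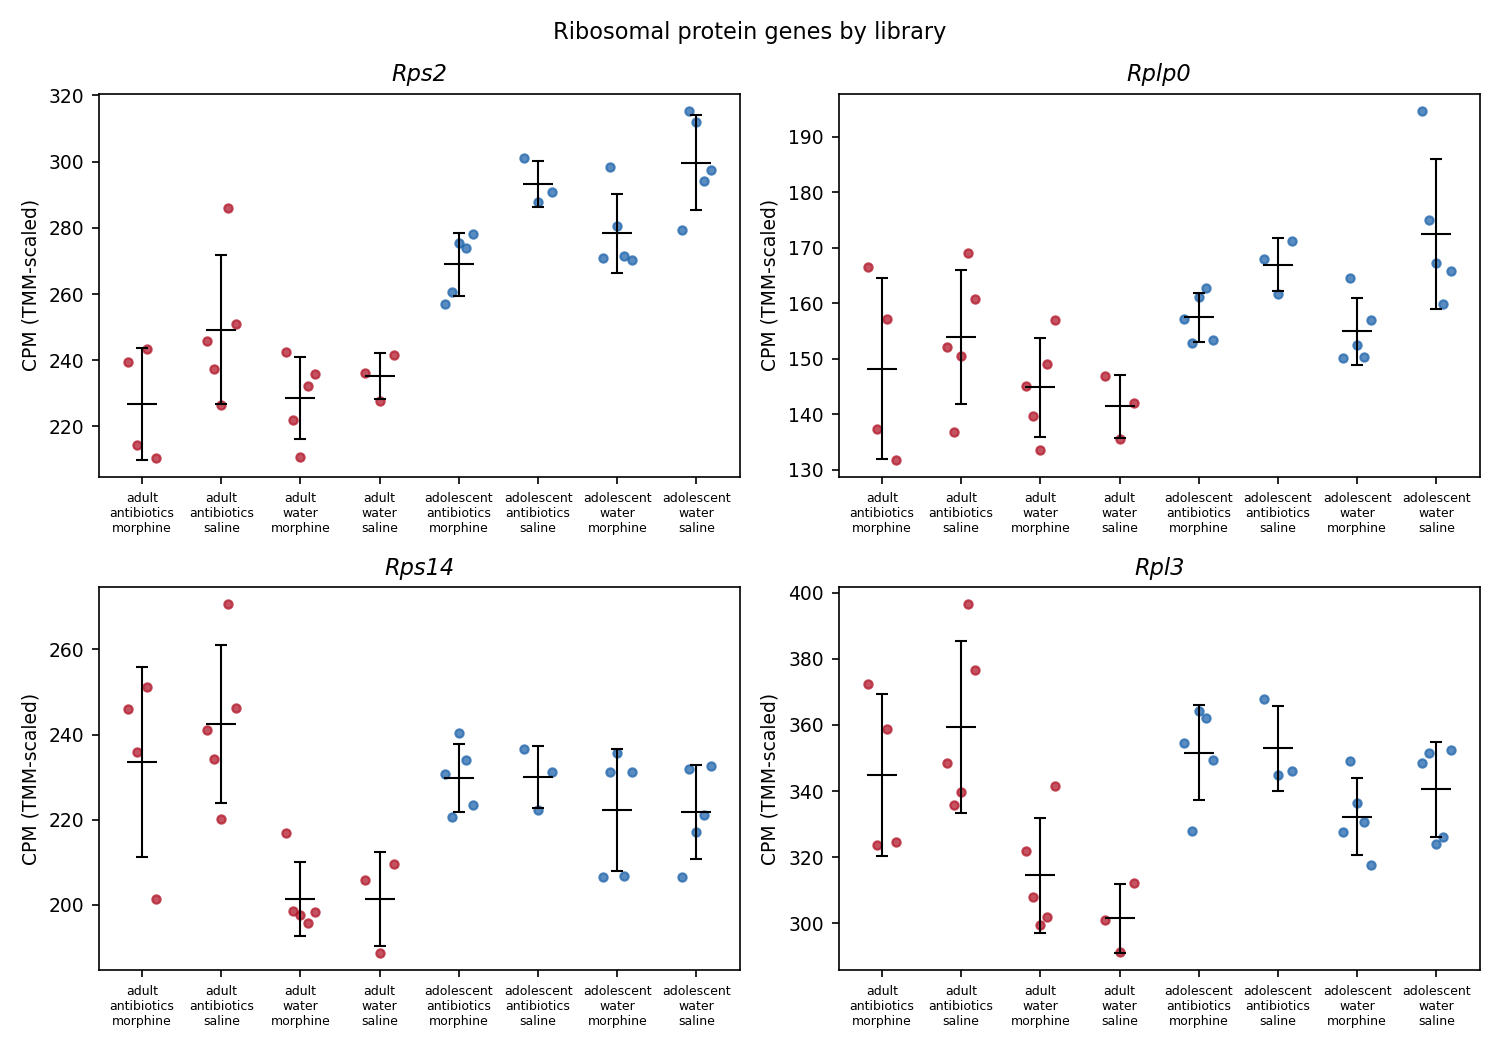
CPM (TMM-scaled) of Rps2, Rplp0, Rps14 and Rpl3 in each of 35 libraries, with group means and SDs as bars; the axes do not start at 0. Rps14 and Rpl3 are higher in adult antibiotics saline than in adult water saline libraries, and Rps2 is lower in adult than in adolescent libraries.

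By stratum the median antibiotics values were larger in adults. The median log2 fold change of the 78 genes was 0.14 in adults with saline and 0.09 in adults with morphine, against 0.05 in adolescents with saline and 0.02 in adolescents with morphine. In adults with saline 24 genes were higher in every antibiotics library than in every water library, where 3.95% of all genes were, and 41 had an unadjusted p under 0.05, where 4.73% of all genes did, but edgeR called 0, against 0.031% of all genes called higher. There the smallest adjusted p was that of Rpl14 (0.071), and DESeq2 called 3. In adults with morphine Rps14 was the single gene called higher, by 0.21 on the log2 scale (SE 0.058, adjusted p = 0.044), where 0.916% of all genes were called, and leaving out single libraries ended that call in 21 of 35 fits. In adolescents edgeR and DESeq2 called 0 with either injection, with 4 higher genes at an unadjusted p under 0.05 under saline and 0 under morphine. Of all genes 0.0103% were called higher under saline and 1.11% in either direction under morphine, and 4.58% and 12.7% had such an unadjusted p. The 4 strata hold different libraries, and 41 of the 78 genes had positive values in all 4 of them, against 15.2% of all genes. The test of the difference between ages called 0 genes with edgeR and with DESeq2, where 0% of all genes were called, with 17 at an unadjusted p under 0.05 toward a larger value in adults, where 2.88% of all genes were. The smallest of these was that of Rps26 (log2 difference 0.24, unadjusted p = 0.00018, adjusted p = 0.941), followed by Rpl14 at 0.18 and Rpl35 at 0.20.

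With the length readout as a covariate, 10 of the 19 genes stayed called higher with antibiotics, where 5.19% of all genes were. These were Rps14, Rpl3, Rpl17, Rpl14, Rps27, Rpl11, Rpl37, Rpl35a, Rps15 and Rpl32, with Rps14 at 0.11 (adjusted p = 0.0014) and Rpl3 at 0.10 (adjusted p = 0.0017). The median over the 78 genes was then 0.05. By stratum it was 0.07 in adults with saline, 0.10 in adults with morphine, −0.01 in adolescents with saline, where 27 of the 78 values were positive in place of 60, and 0.03 in adolescents with morphine. In the fit without the covariate, 10 genes were called in place of 19 when adult water saline replicate 3 was left out, and likewise when replicate 1 of adolescent antibiotics saline was.

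Genes of related function were counted beside them, to be read against the 5.16% of all genes called higher and the 5.05% called lower. Fau, a ribosomal protein gene under another name, was higher with antibiotics, by 0.13 (adjusted p = 0.013), while Rack1 had 0.03 (adjusted p = 0.50). Of 16 translation factors and other genes whose mRNAs carry TOP tracts, 6 were higher and 0 lower, including Eif4b by 0.15 (adjusted p = 8.49e-05) and Eif3f by 0.10 (adjusted p = 0.0020). Eef1a1 had 0.01 and Eef2 −0.04 (adjusted p = 0.90 and 0.28). Of 10 host genes of small nucleolar RNAs, which guide the modification of ribosomal RNA, 6 were higher and 0 lower, with Zfas1 at 0.46 (adjusted p = 4.25e-10), Gas5 at 0.25 (adjusted p = 0.00012) and Snhg3 at 0.31 (adjusted p = 0.00049). Of 39 ribosome biogenesis genes 1 was higher, Nop58 by 0.11 (adjusted p = 0.019), and of 77 mitochondrial ribosomal protein genes 5 were higher and 3 lower. Of 8 S6 kinase genes 2 were higher and 1 lower, and Rps6kb1, which encodes the kinase that phosphorylates Rps6, was higher by 0.12 (adjusted p = 0.0030). Of 22 genes of mTORC1 and its translation outputs 3 were higher and 2 lower, and Mtor itself had −0.02 (adjusted p = 0.72).

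Cell type markers moved in the same contrast. Of 5 microglial markers 4 were lower with antibiotics and 0 higher, and in adults with saline their sum ranged from 207 to 214 CPM on antibiotics, against 214 to 232 CPM on water. Of 5 astrocyte markers 2 were lower, Aqp4 by 0.46 and Slc1a3 by 0.14. Summed striatal neuron markers ranged from 136 to 149 CPM on antibiotics, against 107 to 134 CPM on water, in adults with morphine. In adults with saline the ranges were 127 to 157 against 109 to 121 CPM, and in adolescents with morphine 141 to 149 against 126 to 137 CPM. In adolescents with saline the medians were 130 and 109 CPM, and the ranges overlapped, with replicate 1 on water at 1001 CPM. None of these markers was at 0 in every library. Their part in the ribosomal protein values was not tested.

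**Figure D4:**
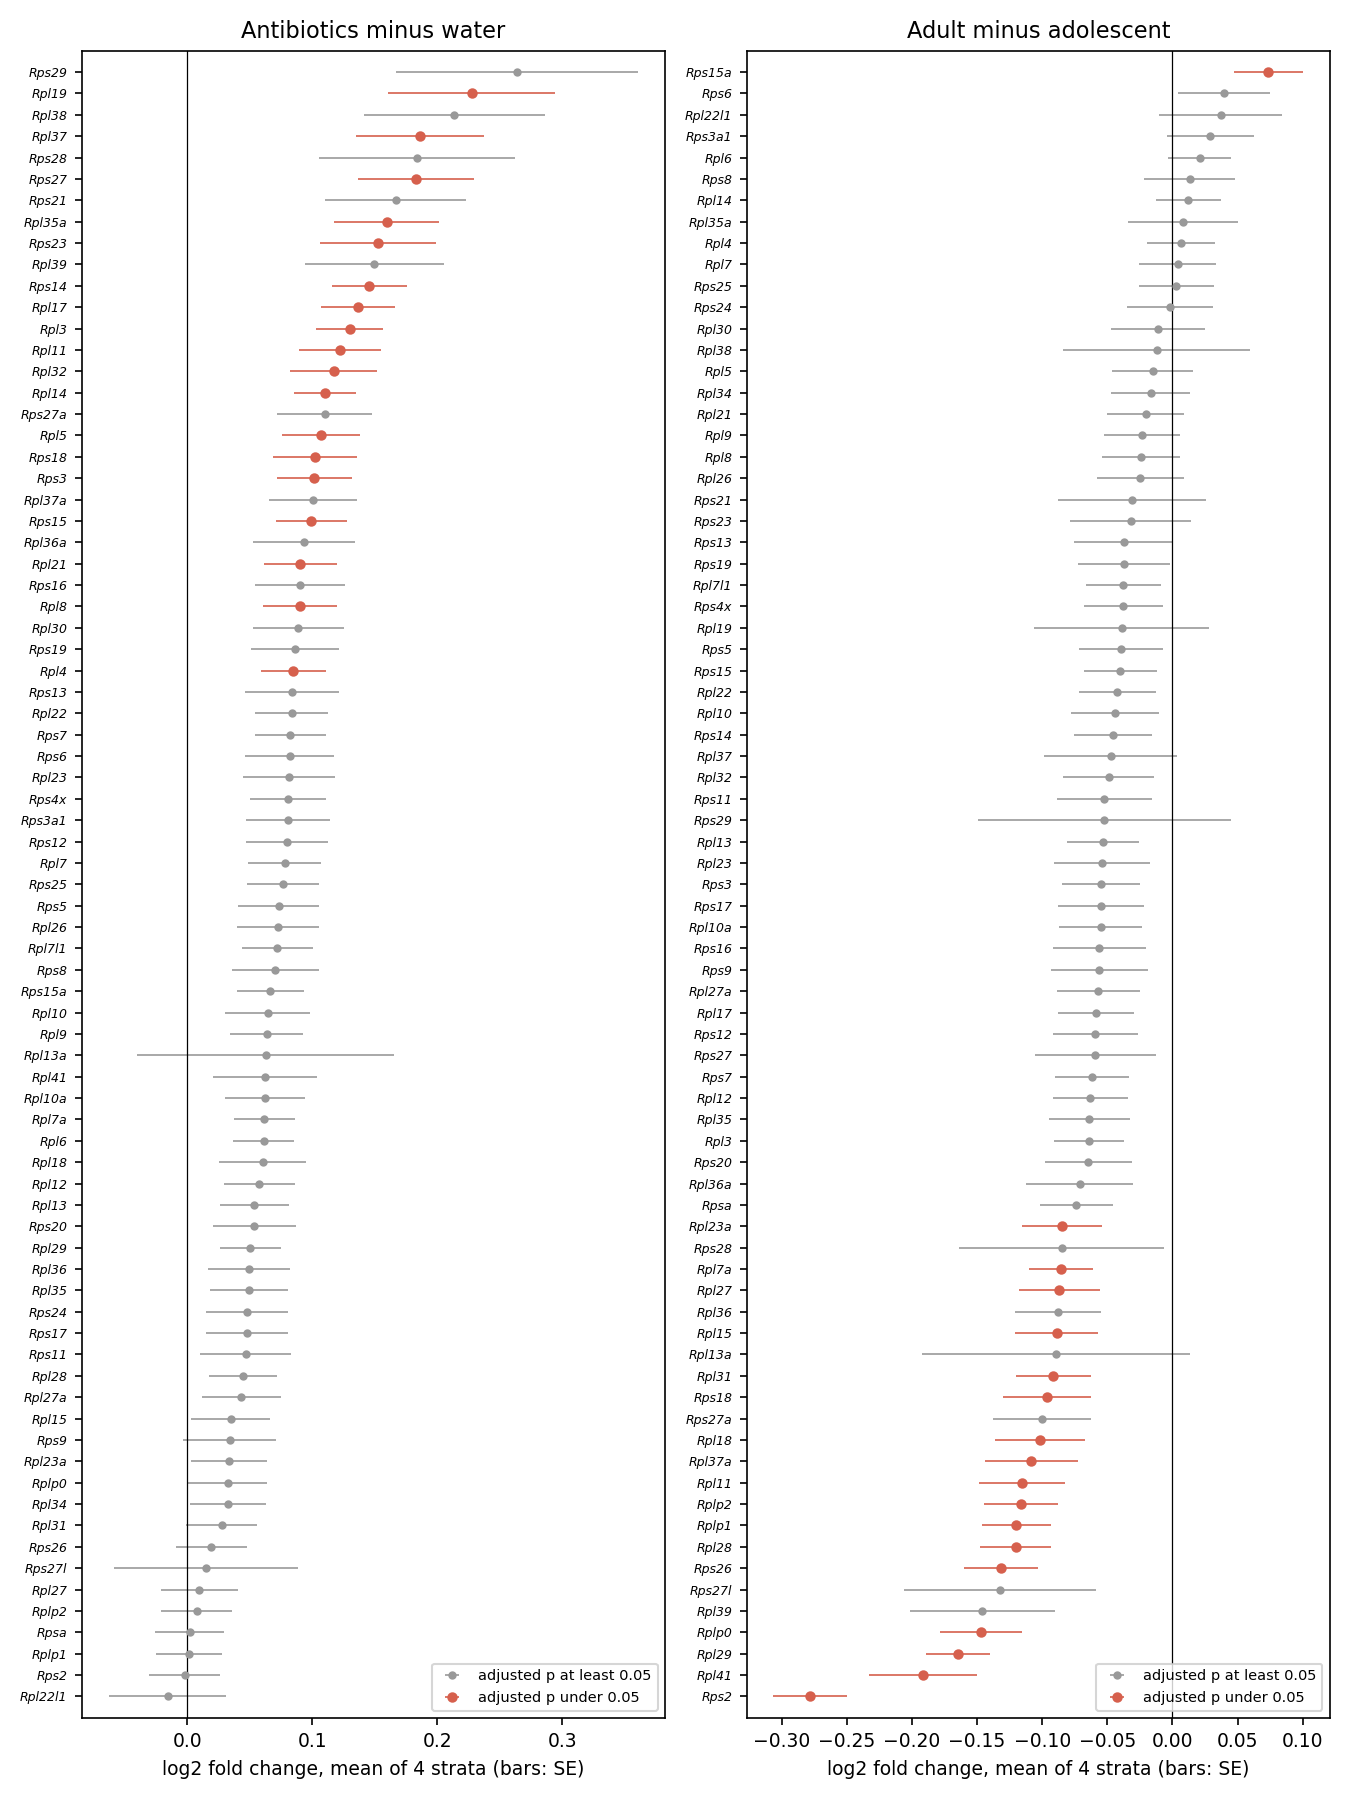
Log2 fold changes (mean of 4 strata, bars show the SE) of all but 1 of the 78 ribosomal protein genes for antibiotics minus water and adult minus adolescent, sorted by size; coloured points have an adjusted p under 0.05. In the antibiotics panel every coloured gene lies right of 0; in the age panel Rps2 lies farthest left, at −0.28.

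Age was compared at each treatment. Averaged over the 4 treatments, 17 of the 78 genes were lower in adults than in adolescents and 1 was higher, against 11.2% of all tested genes lower and 9.11% higher. The median log2 fold change of the 78 genes was −0.05, against 0.00 for all genes, and 27 genes had negative values in all 4 treatments, against 18.5% of all genes. The 17 included all 3 P stalk genes.

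Rps2, which forms part of the mRNA entry channel of the small subunit, had the largest change with age. In mice on antibiotics with morphine its CPM was 239, 214, 243 and 210.3 in adults, against 257, 261, 275, 274 and 278 in adolescents. With antibiotics and saline Rps2 was at 246, 237, 227, 286 and 251 CPM in adults, against 301, 288 and 291 CPM in adolescents. Every adult value lay below every adolescent value in both pairs, although the adult library at 286 came close to the lowest adolescent. On water with morphine Rps2 was at 242, 222, 211, 232 and 236 CPM in adults, against 271, 298, 281, 271 and 270.3 CPM in adolescents. On water with saline it was at 236, 228 and 242 CPM in adults, against 279, 315, 312, 294 and 298 CPM in adolescents. These pairs did not overlap either. The log2 fold changes of Rps2 were −0.24, −0.23, −0.28 and −0.35 in that order (adjusted p = 0.013, 0.032, 0.0036 and 0.00079), and −0.28 over the 4 treatments (SE 0.028, adjusted p = 7.05e-09).

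Rps2 was the single ribosomal protein gene called lower with water and morphine, where 0.460% of all genes were called lower, with antibiotics and saline, where 0.998% were, and with antibiotics and morphine, where 1.13% were. Its call over the 4 treatments held with the length readout as a covariate (−0.17, adjusted p = 0.000101) and without any single library. With that covariate the Rps2 calls under antibiotics ended, at −0.12 with saline (adjusted p = 0.27) and −0.15 with morphine (adjusted p = 0.064). The call with antibiotics and saline also ended without any of the 3 adolescent libraries or without adult replicate 1, 2 or 3 of that treatment, with adjusted p up to 0.15. The call with antibiotics and morphine ended without adult replicate 2 (adjusted p = 0.081) or 5 (adjusted p = 0.076). The Rps2 gene overlaps the antisense gene Snhg9, and with the strand setting of the counting unknown their reads cannot be separated.

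All 3 P stalk genes were lower in adults. Rplp0, the scaffold of the stalk, was at 147, 136 and 142 CPM in adults on water with saline, against 195, 175, 167, 159.8 and 166 CPM in adolescents, with no overlap. Rplp0 averaged 148 ± 16.3 CPM in adults (SD, n = 4) and 157 ± 4.42 CPM in adolescents (n = 5) with antibiotics and morphine, 154 ± 12.1 CPM in adults (n = 5) and 167 ± 4.82 CPM in adolescents (n = 3) with antibiotics and saline, and 145 ± 8.93 CPM in adults and 155 ± 6.05 CPM in adolescents with water and morphine (n = 5 each). The ranges overlapped in these 3 pairs. The adolescent library at 195 CPM was replicate 1, which stood apart by its striatal markers. Over the 4 treatments Rplp0 changed by −0.15 (SE 0.032, adjusted p = 0.00094), and by −0.13 without that library (adjusted p = 0.00057). Rplp1 changed by −0.12 (SE 0.027, adjusted p = 0.0014) and Rplp2 by −0.12 (SE 0.029, adjusted p = 0.0034).

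The other genes with small adjusted p were Rpl29 at −0.16 (SE 0.025, adjusted p = 7.6e-06), Rps26 at −0.13 (SE 0.028, adjusted p = 0.00091), Rpl41, which encodes the shortest of the ribosomal proteins, at −0.19 (SE 0.042, adjusted p = 0.0011) and Rpl28 at −0.12 (SE 0.027, adjusted p = 0.0016). The other called genes, Rpl11, Rpl7a, Rpl31, Rpl37a, Rpl18, Rps18, Rpl27, Rpl15 and Rpl23a, ranged from −0.12 to −0.08. Rpl29 was at 163, 151 and 154 CPM in adults on water with saline, against 163, 191, 187, 179 and 182 CPM in adolescents, where 1 adult library lay level with the lowest adolescent. Rps15a was the single gene higher in adults, by 0.07 (adjusted p = 0.046). Leaving out 1 library at a time, the Rps15a call held in 18 of 35 fits, with adjusted p up to 0.0994 without adolescent antibiotics saline replicate 5. The calls of Rpl23a, Rpl15, Rpl27, Rps18 and Rpl18 held in 12, 13, 16, 17 and 26 fits, with adjusted p up to 0.121 for Rpl15 without replicate 1 of that group. Other genes of the set fixed by rule included Rpsa at −0.07 (adjusted p = 0.056), Rpl39 at −0.15 (0.060), Rps27a at −0.10 (0.056), Rpl3 at −0.06 (0.085), Rps14 at −0.05 (0.30), Rpl10 at −0.04 (0.39), Rps4x at −0.04 (0.41) and Rps6 at 0.04 (0.47).

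On water with saline 6 genes were lower in adults, against 1.92% of all genes called lower: Rps2, Rps26 at −0.31 (adjusted p = 0.0031), Rplp0 at −0.29 (adjusted p = 0.013), Rpl29 at −0.21 (adjusted p = 0.019), Rplp1 at −0.22 (adjusted p = 0.025) and Rpsa at −0.22 (adjusted p = 0.032). In 33 genes no adult library reached the lowest adolescent library, where 5.91% of all genes were. The median log2 fold change of the 78 genes was −0.13 with water and saline, −0.07 with water and morphine, −0.04 with antibiotics and saline and 0.01 with antibiotics and morphine, and these 4 pairs hold different libraries. With the length readout as a covariate the 4 medians were −0.02, 0.03, 0.08 and 0.10 in the same order, so those with water and morphine and with antibiotics and saline changed sign. Without the covariate, the largest age median and the largest antibiotics median, 0.14 in adults with saline, both rest on the adult water saline libraries. Leaving out adult water saline replicate 3, 5 or 1 gave 1, 2 or 3 calls with water and saline, and leaving out replicate 2 of adolescent water saline gave 3. Rps2 stayed called in each of these fits, and the Rplp0 call ended without adult replicate 3 (adjusted p = 0.123) or 5 (adjusted p = 0.0561).

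Much of the age difference moved with the length readout. The readout was itself lower in adults at each treatment, so age and the readout cannot be told apart. With it as a covariate, the median over the 78 genes was 0.05 in place of −0.05, Rps2 was the single gene called lower, where 2.99% of all genes were, and 8 genes were called higher, where 2.17% of all genes were. The 8 were Rpl22l1 at 0.20 (adjusted p = 0.0085), Rps3a1 at 0.14 (adjusted p = 0.020), Rpl6 at 0.10, Rpl4 at 0.10, Rpl9 at 0.09, Rps15a at 0.12, Rpl14 at 0.09 and Rps6 at 0.14 (adjusted p = 0.0499). Of the 18 genes called without the covariate, 2 stayed called, Rps2 and Rps15a. Rplp0 was then at −0.06 (adjusted p = 0.37).

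Genes related to ribosomes were counted in the age comparison too, in the fit without the covariate. There 9.11% of all genes were called higher in adults and 11.2% lower. Of 77 mitochondrial ribosomal protein genes 22 were lower in adults and 0 higher, with Mrpl36 at −0.21 (adjusted p = 0.00018) and Mrps24 at −0.22 (adjusted p = 0.0014). Of 16 translation factors and other genes with TOP mRNAs 3 were lower, with Pabpc1 at −0.19 (adjusted p = 1.38e-07), Eef1b2 at −0.13 (adjusted p = 0.0023) and Tpt1 at −0.09 (adjusted p = 0.040). Of 39 ribosome biogenesis genes 3 were higher and 3 lower, including Polr1a, the largest subunit of RNA polymerase I, at 0.16 (adjusted p = 0.0040) and the H/ACA protein gene Nop10 at −0.20 (adjusted p = 0.00012). Of 22 mTORC1 genes 5 were higher and 2 lower, with Deptor at 0.22 and Mtor at 0.13 (adjusted p = 0.00050). Of 10 long nuclear RNAs 7 were higher, and of 72 nuclear respiratory chain genes 33 were lower and 1 higher. Of 13 mitochondrial mRNAs 5 were higher, with log2 fold changes from 0.37 for mt-Nd3 to 0.68 for mt-Nd4l. The mean summed share of mitochondrial mRNAs was 4.03% in adults and 4.20% in adolescents with water and saline. It was 4.16% and 4.28% with water and morphine, 4.23% and 4.13% with antibiotics and saline, and 3.92% and 3.87% with antibiotics and morphine. Microglial markers were lower in 4 of 5 and precursor markers of oligodendrocytes in 2 of 4. Among the other markers Slc17a7 of excitatory neurons changed by −0.18, Sst and Gad1 of inhibitory neurons by −0.28 and 0.13, and Gja1 of astrocytes by −0.16. These are single genes from lists of 5, 6 and 5. Group medians of the summed inhibitory markers were 779 to 818 CPM in adults and 799 to 845 CPM in adolescents. For excitatory markers they were 5579 to 6044 and 5875 to 6108 CPM, and for astrocyte markers 688 to 773 and 717 to 835 CPM. All 4 pancreatic islet markers were lower in adults. The part of these markers in the ribosomal protein values was not tested.

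Morphine was compared with saline, which asks what the opioid injections change. Over both ages and both drinking regimes edgeR called 0 of the 78 genes, against 0.316% of all genes, and DESeq2 called 1 lower. The median log2 fold change was −0.05, against 0.00 for all genes, and 76 values were negative. At an unadjusted p under 0.05 were 24 lower genes and 1 higher, where 5.71% and 5.26% of all genes were. Rps2 had the smallest p, with a value of −0.10 (SE 0.028, adjusted p = 0.11), followed by Rplp1 at −0.09 (adjusted p = 0.12) and Rpl13 at −0.09 (adjusted p = 0.17). Rpl7l1, a paralog of Rpl7, had the highest value at 0.06 (adjusted p = 0.39).

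By stratum the median of the 78 genes was −0.05 in adults on antibiotics, 0.01 in adults on water, −0.09 in adolescents on antibiotics and −0.06 in adolescents on water. In adolescents on antibiotics 17 genes were lower in every morphine library than in every saline library, where 4.43% of all genes were, and edgeR and DESeq2 called 0, where edgeR called 0.0466% of all genes. At an unadjusted p under 0.05 were 12 lower genes, where 4.08% of all genes were. Rplp2 there was at 107, 103, 117, 118 and 109 CPM with morphine, against 127, 124 and 119.8 CPM with saline, so the groups did not overlap, and the log2 difference was −0.16 (SE 0.059, adjusted p = 0.495). In the other strata edgeR and DESeq2 called 0, with 4 genes at an unadjusted p under 0.05 in adults on antibiotics, 0 in adults on water and 8 in adolescents on water. Of all genes 3.53% were lower at that p in adults on antibiotics, 2.89% differed in adults on water and 6.45% were lower in adolescents on water, while edgeR called 0%, 0% and 0.331%. With the length readout as a covariate the median over the 4 strata was 0.00. It was 0.02 in adults on antibiotics, where 52 of the 78 values were positive, 0.01 in adults on water, −0.00 in adolescents on antibiotics and −0.04 in adolescents on water. The tests of whether morphine acts differently by drinking regime or by age called 0 genes with edgeR and with DESeq2. At an unadjusted p under 0.05 were 2 genes for antibiotics by morphine in adults, Rplp1 and Rpsa, 1 in adolescents, Rps21, and 2 for age by morphine, Rpsa and Rps23. In the same directions 1.86%, 3.19% and 3.55% of all genes had such a p, and 0.00517%, 0.0621% and 0.00517% were called.

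Some genes with lower values in adults were near 0 with antibiotics. Rps2, Rplp1, Rplp2 and Rpsa, chosen for this after their values were seen, had antibiotics values between −0.00 and 0.01, and age values of −0.28, −0.12, −0.12 and −0.07. Of these genes, Rpsa was not called with age over the 4 treatments, and with the length covariate only Rps2 was. Rps14 and Rpl14 had antibiotics values of 0.15 and 0.11, and age values of −0.05 and 0.01. Rpl11 and Rps18 were called in both, higher with antibiotics and lower in adults. All of these values rest on the same 35 libraries, and no test of a difference between genes was made.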

How the data were processed

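The authors deposited unnormalized counts for each gene in each library, seen from the whole numbers. Per the labels, an RNeasy kit served for extraction and an ABclonal kit for library preparation. STAR 2.7.10a, DESeq2 and mm10 are named in the submitters' processing notes, and neither annotation release nor strand setting is known from the sources used here. Symbols came from GENCODE M21, which matched 52073 of 56980 identifiers, and the unmatched ones hold 3.86% of counts. Ribosomal protein genes have many near-identical pseudogenes, of which 300 in the table hold 0.637% as many counts as the 78 genes, so reads can be misassigned. Exons of 20 genes overlap another gene that is not a small RNA, 18 of them on the opposite strand.

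Counts of 35 libraries were fitted together in R 4.3.3 with edgeR 4.0.16 (TMM, filterByExpr, robust quasi-likelihood test, a mean per group), over 19332 genes, with Benjamini-Hochberg adjustment over all genes and a threshold of 0.05. Contrasts were 12 between pairs of groups, 3 means over 4 strata and 4 interactions. CPM used TMM-scaled totals, and log2 CPM a prior count of 2. Alternatives included DESeq2 1.42.0, another scaling, no filter, the replicate number as a block, other library sets and a length covariate. The procedure was tested on simulated data. Members and lists were chosen with earlier results of these data known. Genes named are a fixed set, those with the smallest adjusted p, extreme changes, levels and variation, and up to 4 called genes per list. Some genes in the text, such as those without overlap, were chosen after their values were seen. Single genes that are not reported here are counted in the totals and left out of names and figures.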

Additional observations from a re-analysis of the deposited data

Results flagged for a closer look

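In 66 combinations of a group of 4 or 5 libraries and a measure, 1 library stood far from the rest of its group, where chance flags about 1 in 20. Rps14 in adult water morphine replicate 1 was at 217 CPM, against 196 to 199 CPM in the other 4 libraries of that group.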

How the results depend on the processing

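Counts are of the 78 genes called. For antibiotics over 4 strata, where 19 were called, 4 were called with all 37 libraries, 12 without the filter and 10 with the length covariate. Leaving out 1 library gave 10 to 25. For antibiotics in adults with saline (0 called), DESeq2 and 34 libraries, which leave out adolescent water saline replicate 1, each called 3, and single omissions gave 0 to 3. In adults with morphine (1 called), DESeq2 called 2, the length covariate 6, and 37 libraries, no filter and the replicate block 0 each, with 0 to 2 for single omissions. For age over 4 treatments (18 called), 37 libraries and the length covariate each gave 9, and single omissions 11 to 23. For age with water and saline (6 called), 37 libraries and the length covariate each gave 2, and single omissions 1 to 7. With water and morphine (1 called), DESeq2 and 34 libraries gave 3, 37 libraries 0, and single omissions 1 to 3. With antibiotics and saline (1 called), 37 libraries and the length covariate gave 0, and single omissions 0 to 1. With antibiotics and morphine (1 called, Rps2, lower in adults), 37 libraries gave 0 and single omissions 0 to 1. There the covariate gave 2 in the other direction, Rpl14 and Rpl9, higher in adults, and Rps2 was not called. For morphine over 4 strata (0 called), DESeq2 gave 1 and 34 libraries 2, with 0 to 2 for single omissions. The other counts stayed at 0 in every alternative.

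With the length covariate 9 age values turned positive, none past the threshold: Rpl31 0.00557, Rpl37a 0.0255, Rpl11 0.0108, Rpl18 0.0130, Rplp2 0.00255, Rpl23a 0.0301, Rpl27 0.0328, Rpl15 0.0304 and Rps18 0.0377. The cause was not tested. Replicate numbers did not pair libraries, with 8 of 45 same-numbered pairs over r = 0.1. With the replicate block 20 genes were called for antibiotics and 17 for age over 4 strata.

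The shallowest library used held 10630727 counts. Groups of 3 libraries limit the single-stratum tests.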
